A study of Homo sapiens with 8 samples.

Results

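The genes of the proteasome's catalytic subunits and of its interferon-inducible activator were followed in 4 lines of human ovarian cancer, with and without pI:pC. The members are 8 genes: the inducible catalytic subunits PSMB8, PSMB9 and PSMB10, the constitutive catalytic subunits PSMB5, PSMB6 and PSMB7 that they replace, and the activator subunits PSME1 and PSME2. A gene was followed through every probe set whose only symbol in the platform annotation is that gene. By that rule 7 of the 8 genes have a probe set, 1 each, among the 11963 genes measured. The only probe set listed for PSME2 carries a second gene's symbol as well, so PSME2 was not analysed here.

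The established lines were CAOV-3, OVCAR-3, SKOV-3 and DOV-13. Each gave 1 array of cells given pI:pC (polyriboinosinic:polyribocytidylic acid, a synthetic RNA duplex that the innate sensors of viral RNA recognise) and 1 array of untreated cells, so there were 8 arrays and 4 in each group. All cultures shared a serum-containing medium with antibiotic, and for no array do the labels state a dose or an exposure time. The values are RMA log2 expression levels, so a difference of 1 is a doubling, and no array has a repeat within its line.

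The proteasome core is a stack of rings, and the inner beta rings carry the sites that cut proteins into peptides. Interferon-treated cells make alternative catalytic subunits, PSMB9 (LMP2) in place of PSMB6, PSMB10 (MECL1) in place of PSMB7 and PSMB8 (LMP7) in place of PSMB5. The resulting immunoproteasome cuts more often after residues that MHC class I molecules hold at the end of a peptide. PSME1 and PSME2 (PA28 alpha and beta) form a ring that caps the core and eases the exit of peptides.

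The promoters of these genes are known for the interferon-stimulated response element, to which IRF proteins bind, and the stretches around their starts are shown because most of the inducible genes hold its letters there. The letters GAAANNGAAA, the core of that element, were searched on both strands of RefSeq promoter windows of 300 bases (GRCh38.p14, 250 bases before to 50 after each start). Of 35116 windows, 3.57% hold it. It lay in a window of PSMB8, PSMB10, PSME1 and PSME2, which are 4 of the 5 inducible members. It was in neither window of PSMB5 and not in that of PSMB9, and PSMB6 and PSMB7 have no entry in the table. Each line runs 5′ to 3′ on the gene's strand from 60 bases before to 20 after an annotated start, with the match in capitals.
PSMB8, second start (chr6:32844028-32844107, minus strand): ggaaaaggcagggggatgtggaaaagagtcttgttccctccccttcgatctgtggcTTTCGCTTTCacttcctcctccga
PSMB10 (chr16:67936831-67936910, minus strand): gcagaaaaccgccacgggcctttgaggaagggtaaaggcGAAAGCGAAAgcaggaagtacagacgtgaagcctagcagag
PSME1 (chr14:24136134-24136213, plus strand): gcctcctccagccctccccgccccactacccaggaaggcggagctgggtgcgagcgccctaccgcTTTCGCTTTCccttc
PSME2 (chr14:24146591-24146670, minus strand): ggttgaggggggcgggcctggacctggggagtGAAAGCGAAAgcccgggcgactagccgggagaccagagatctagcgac
PSMB9 (chr6:32854132-32854211, plus strand): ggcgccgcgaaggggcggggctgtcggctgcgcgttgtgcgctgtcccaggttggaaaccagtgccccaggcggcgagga
PSMB5, first start (chr14:23035201-23035280, minus strand): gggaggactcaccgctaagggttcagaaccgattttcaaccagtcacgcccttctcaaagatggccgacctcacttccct

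The first start of PSMB8 has no match in its window. PSMB9 lies head to head with TAP1, a subunit of the peptide transporter, and the nearest TAP1 start is 488 bases from the PSMB9 start on the opposite strand. The window of that TAP1 start holds 2 overlapping matches, shown here because they lie between the starts of both genes, from 160 to 80 bases before the TAP1 start.
TAP1, first start (chr6:32853785-32853864, minus strand): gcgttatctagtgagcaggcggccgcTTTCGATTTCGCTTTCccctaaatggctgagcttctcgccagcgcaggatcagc

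The letters TTCNNNGAA, the pattern of the gamma-interferon activation site, are in 7.66% of the windows. They were present in the window of the second start of PSMB8 and, at 2 places, in that of the second start of PSMB5, and in no other window of a member. A match in letters is a description of the sequence and not a site shown to be bound.

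The arrays had median log2 values between 6.19 and 6.30. Precision is limited by the small number of arrays. Without repeats, limma's p-values rest on how a gene's change varied between lines (3 residual degrees of freedom). limma draws that spread toward one shared by all genes (4.41 prior degrees of freedom). Its SE and unadjusted p can therefore be smaller than the gene's own SD over the lines would give. Of 11 epithelial and ovarian carcinoma markers, 11 were at or above the median gene in untreated OVCAR-3, 9 in CAOV-3, 5 in SKOV-3 and 4 in DOV-13. The adhesion molecule genes EPCAM and CDH1, the mucin genes MUC1 and MUC16, WT1, CLDN3 and CLDN4 were under the median in DOV-13. All of these but EPCAM were under it in SKOV-3 too, and MUC16 and WT1 also in CAOV-3. The keratin genes KRT8, KRT18 and KRT19 and the lineage factor gene PAX8 were above it in every line. Leukocytes make immunoproteasomes without stimulation, and of 10 measured leukocyte markers, 9 were under the median gene on all 8 arrays. The pan-leukocyte gene PTPRC (CD45) had log2 levels between 4.11 and 4.41. Only CD14 reached the median, in untreated CAOV-3 (7.06, against 6.15 with pI:pC). The mean level of the leukocyte list was 4.81 to 5.03 in untreated and 4.80 to 4.89 in treated arrays.

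The inducible catalytic genes were higher with pI:pC in nearly every line, and on the log2 scale most in CAOV-3, while the constitutive genes differed little. The differences of all genes were also most spread in CAOV-3 (SD 0.29, against 0.16 to 0.20 in the other lines). By rank among all genes each stood higher in another line than in CAOV-3. PSMB9 was above 99.9% in SKOV-3 against 99.3%, PSMB10 above 99.7% in DOV-13 against 99.2%, and PSMB8 above 99.3% in OVCAR-3 against 98.5%. Of the 12 treated minus untreated differences of PSMB8, PSMB9 and PSMB10, 11 were positive, with a range of -0.10 to 1.21 on the log2 scale. Of the 12 differences of PSMB5, PSMB6 and PSMB7, 9 were positive, with a range of -0.06 to 0.25. Over all genes and lines 52.1% of the differences were positive. The trios differed from each other in size more than in sign, and the 12 values of a trio are 3 genes on the same 4 pairs of arrays. No member passed limma's test over the lines with the line as a block and Benjamini-Hochberg adjustment over all genes, and 0 of 11963 genes did so in either direction (0% called). At an unadjusted p under 0.05 there were 4 members, PSMB8, PSMB9, PSMB10 and PSME1, all higher. Of all genes, 291 (2.43%) were higher and 157 lower at that level. The 4 members became 2, PSMB8 and PSMB9, without CAOV-3, 3 without SKOV-3, DOV-13 or OVCAR-3, and 0 without the line as a block. The share of all genes at that level was not counted for the fits without a line. The fit without the block ignores the pairing, so line differences enter its spread, and 9 of the 11963 genes reached that level.

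**Figure D1:**
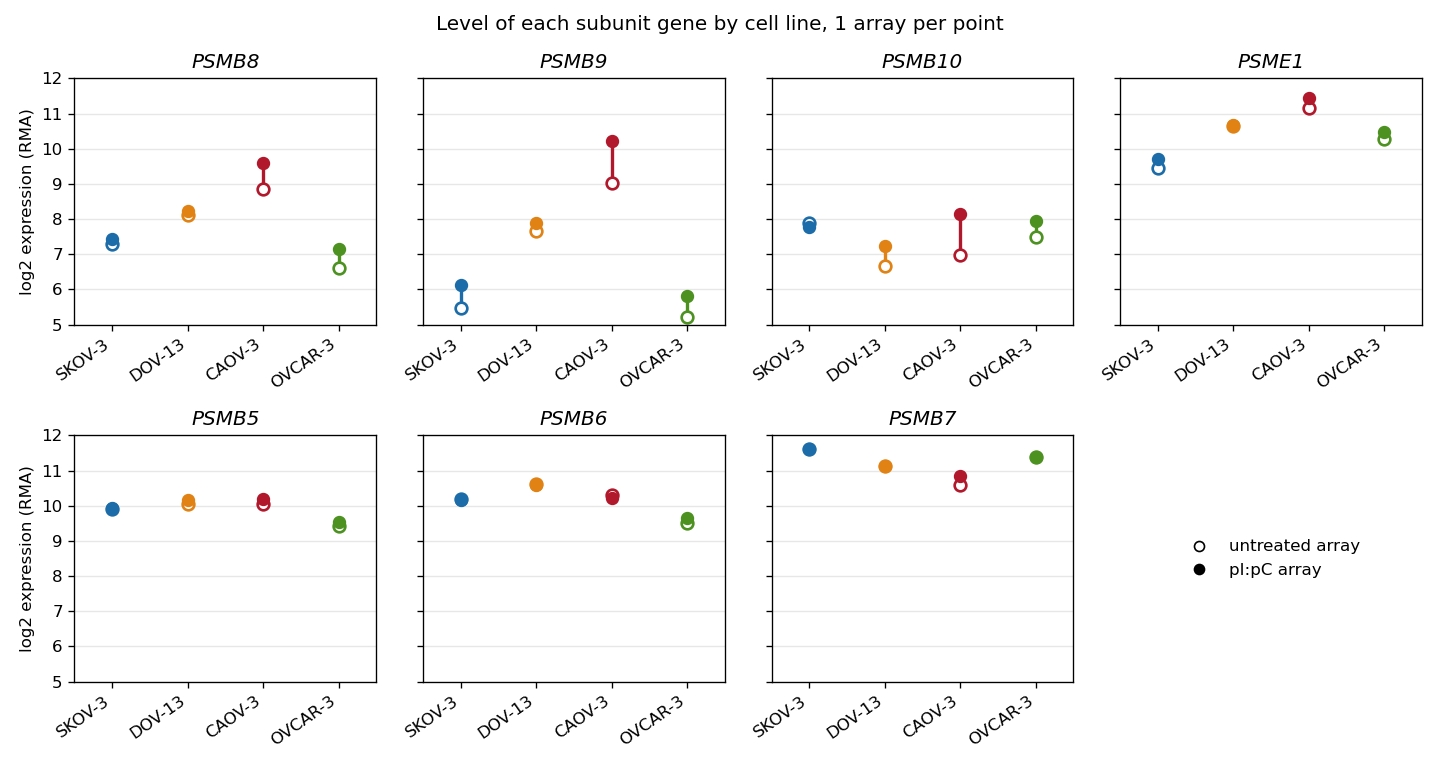
Log2 expression (RMA) of the 7 measured subunit genes, a panel each, in the 4 cell lines. Open circles are untreated arrays and filled circles pI:pC arrays, 1 array per point, joined by a line. PSMB9 spans 5.21 to 9.03 over the untreated lines, and its treated array is above the untreated one in all 4. Levels of different panels come from different probes and are not to be compared.

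PSMB9, the inducible counterpart of PSMB6 encoded in the MHC region, had untreated log2 levels of 5.48 in SKOV-3, 7.66 in DOV-13, 9.03 in CAOV-3 and 5.21 in OVCAR-3. The treated levels were 6.12, 7.89, 10.23 and 5.82 in the same order. The lines thus stood far apart before treatment, and every treated array lay above its own untreated array while the groups overlapped across lines. The differences were 0.63 in SKOV-3, 0.22 in DOV-13, 1.21 in CAOV-3 and 0.61 in OVCAR-3, a mean of 0.67 ± 0.40 (SD, n = 4 lines; SE of the fit 0.14). The mean change of PSMB9 was above that of 99.7% of all genes, and its adjusted p in limma's test was 0.988 (unadjusted 0.00179).

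In SKOV-3, where few genes differed, the PSMB9 difference was above that of 99.9% of genes. The PSMB9 levels of SKOV-3 and OVCAR-3 were below the median gene with and without pI:pC (31.8% of genes were dimmer in untreated and 40.8% in treated SKOV-3, and 25.1% and 36.4% in OVCAR-3). RMA compresses differences at such levels, so the folds there may be understated. In CAOV-3, where PSMB9 was bright on both arrays, the treated over untreated ratio was 2.31-fold.

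PSMB8, which replaces PSMB5 and lies beside PSMB9 and the transporter genes, had untreated levels of 7.29 in SKOV-3, 8.12 in DOV-13, 8.86 in CAOV-3 and 6.62 in OVCAR-3. With pI:pC they were 7.44, 8.24, 9.61 and 7.16. CAOV-3 was highest and OVCAR-3 lowest in both groups, and the groups overlapped across lines. The differences were 0.15 in SKOV-3, 0.12 in DOV-13, 0.75 in CAOV-3 and 0.54 in OVCAR-3. The mean was 0.39 ± 0.31 (SD, n = 4 lines; SE 0.11), with an adjusted p of 0.988 in limma's test (unadjusted 0.00979). In CAOV-3 and OVCAR-3 the difference was above 98.5% and 99.3% of genes, and in SKOV-3 and DOV-13 above 79.9% and 72.8%.

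PSMB10, which replaces PSMB7 and is encoded outside the MHC region, had untreated levels of 7.89 in SKOV-3, 6.67 in DOV-13, 6.98 in CAOV-3 and 7.49 in OVCAR-3. With pI:pC they were 7.79, 7.23, 8.16 and 7.94. Here SKOV-3 was the highest untreated line and the one line without a higher treated array. The differences were -0.10, 0.57, 1.18 and 0.45, with a mean of 0.52 ± 0.53 (SD, n = 4 lines; SE 0.18). The adjusted p in limma's test was 0.988 (unadjusted 0.0194), and without CAOV-3 the mean was 0.31. In DOV-13 the PSMB10 difference was above that of 99.7% of genes, whereas PSMB9 stood above 90.5% and PSMB8 above 72.8% there.

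The order of the inducible genes therefore varied by line. In SKOV-3 PSMB9 had the largest difference of the 3 and PSMB10 the smallest. In DOV-13 PSMB10 had the largest and PSMB8 the smallest. In CAOV-3 PSMB9 and PSMB10 were within 0.1 of each other, and in OVCAR-3 the 3 lay between 0.45 and 0.61. With 1 array per condition in a line there is no test of these within-line orders.

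PSME1, the alpha subunit of the activator ring, had untreated levels of 9.45 in SKOV-3, 10.64 in DOV-13, 11.16 in CAOV-3 and 10.27 in OVCAR-3. With pI:pC they were 9.69, 10.68, 11.44 and 10.49. All treated arrays were higher than their partners by a small amount, 0.24, 0.036, 0.27 and 0.22. The mean was 0.19 ± 0.11 (SD, n = 4 lines; SE 0.066), with an adjusted p of 0.988 in limma's test (unadjusted 0.0212). The SD of PSME1 over the lines was smaller than those of the inducible catalytic genes. When the arrays were centred on their medians the DOV-13 difference of PSME1 was -0.0073, so its direction there depends on the scaling.

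The constitutive catalytic genes had smaller mean changes than the inducible ones. PSMB5, the chymotrypsin-like subunit, had untreated levels of 9.92 in SKOV-3, 10.06 in DOV-13, 10.04 in CAOV-3 and 9.43 in OVCAR-3, and treated levels of 9.92, 10.15, 10.18 and 9.54. Its differences were 0.0075, 0.087, 0.13 and 0.12, with a mean of 0.086 ± 0.056 (SD, n = 4 lines). PSMB5 was thus slightly higher in each treated array, and its mean stood above 83.5% of genes. The unadjusted p of PSMB5 in limma's test was 0.187, with an adjusted p of 0.988.

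PSMB6, the caspase-like subunit, had untreated levels of 10.20 in SKOV-3, 10.63 in DOV-13, 10.29 in CAOV-3 and 9.52 in OVCAR-3, and treated levels of 10.17, 10.60, 10.23 and 9.65. Its differences were -0.031, -0.026, -0.064 and 0.14, and the mean was 0.0038 ± 0.090 (SD, n = 4 lines; adjusted p in limma's test 0.998). OVCAR-3 was the only line with a higher treated array, and the mean turned to -0.0081 when arrays were centred on their medians and to -0.040 without OVCAR-3.

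PSMB7, the trypsin-like subunit, had untreated levels of 11.61 in SKOV-3, 11.12 in DOV-13, 10.59 in CAOV-3 and 11.38 in OVCAR-3, and treated levels of 11.62, 11.13, 10.84 and 11.39. Its differences were 0.016, 0.016, 0.25 and 0.012. CAOV-3 stood apart from the other lines, and the mean of 0.074 ± 0.12 (SD, n = 4 lines; adjusted p in limma's test 0.988) was 0.015 without it. In DOV-13 the PSMB7 difference became -0.013 with a second quantile normalization and -0.028 with centred arrays.

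**Figure D2:**
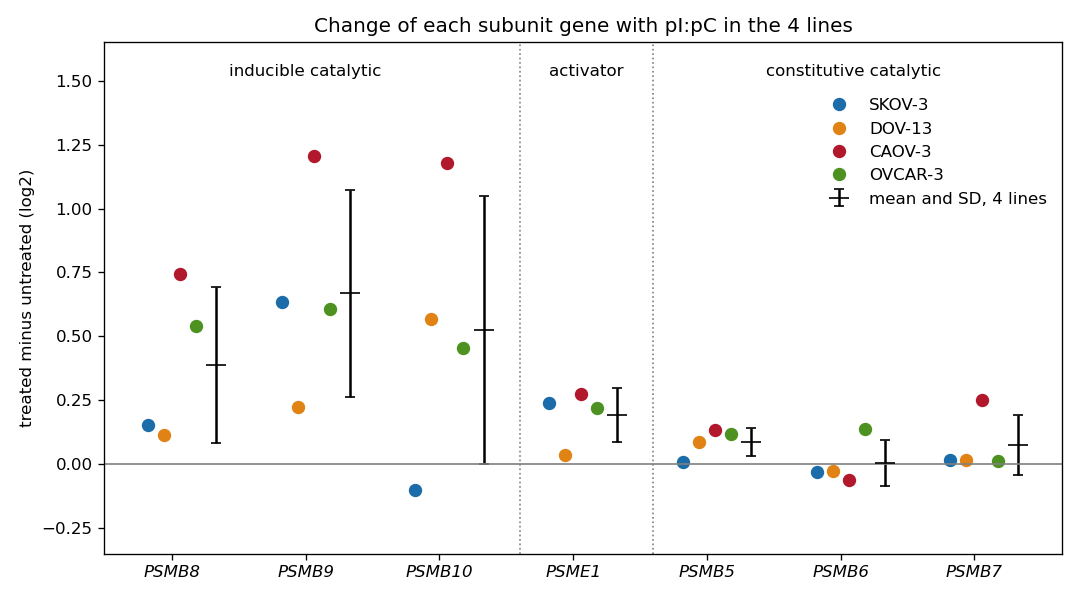
Treated minus untreated log2 difference of each measured subunit gene, 1 point per cell line, with the mean and SD over the 4 lines as a black bar. Of the inducible catalytic points 11 of 12 lie above 0 and the highest is 1.21, while 9 of the 12 constitutive points lie above 0 and all lie between -0.06 and 0.25.

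Set against their partners at the same catalytic site, the inducible genes had the larger difference in 11 of 12 comparisons of the deposited values. These are differences of changes, since levels of different probes cannot be set against each other. PSMB9 exceeded PSMB6 by 0.66 in SKOV-3, 0.25 in DOV-13, 1.27 in CAOV-3 and 0.47 in OVCAR-3, a mean of 0.66 ± 0.44 (SD, n = 4 lines). PSMB8 exceeded PSMB5 by 0.15, 0.028, 0.61 and 0.42 in the same order, a mean of 0.30 ± 0.26, which was 0.20 without CAOV-3. Both pairs had the inducible gene ahead in every line, by very little for PSMB8 in DOV-13. A second quantile normalization gave PSMB8 0.048 and PSMB5 0.060 in DOV-13, so the order of that pair there depends on the scaling.

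PSMB10 differed from PSMB7 by -0.12 in SKOV-3, 0.55 in DOV-13, 0.93 in CAOV-3 and 0.44 in OVCAR-3, a mean of 0.45 ± 0.43 (SD, n = 4 lines), which was 0.29 without CAOV-3. On the deposited values SKOV-3 was the one line in which the constitutive gene of a pair had the larger difference. In a two-sided exact sign-flip permutation test over the 4 lines, 2 of the 16 sign patterns were as extreme as that seen for PSMB9 against PSMB6 and for PSMB8 against PSMB5 (p = 0.188 adjusted over the 3 pairs). For PSMB10 against PSMB7 the same exact test found 4 patterns (p = 0.25). With 4 lines no fewer than 2 of 16 can be as extreme, so no pair could pass a threshold of 0.05.

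Averaged over each trio, the inducible genes differed by 0.23 in SKOV-3, 0.30 in DOV-13, 1.04 in CAOV-3 and 0.53 in OVCAR-3. The constitutive genes averaged -0.0025, 0.026, 0.11 and 0.088. The median of all genes lay between -0.018 and 0.034 in the 4 lines. In CAOV-3 the 95th percentile of all genes was 0.37 and all 3 inducible genes were above it. In OVCAR-3 it was 0.26, again with all 3 above it. In SKOV-3 (0.30) only PSMB9 was above it, and in DOV-13 (0.28) only PSMB10.

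Counted by size, a gene was called higher in a line where treated minus untreated was at least 1 and the brighter of the pair was at or above the pair's median gene. In CAOV-3 this held for 2 of the 7 members, PSMB9 and PSMB10, and for 0.844% of all genes. In SKOV-3, DOV-13 and OVCAR-3 it held for no member, against 0.00836%, 0.0167% and 0.217% of all genes. At a size of at least 0.5 it held for PSMB8, PSMB9 and PSMB10 in CAOV-3 (2.29% of all genes), for PSMB8 in OVCAR-3 (0.493%), for PSMB10 in DOV-13 (0.284%) and for none in SKOV-3 (0.092%). PSMB9 missed that count in SKOV-3 and OVCAR-3 because its level lay under the median gene.

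Across lines, 5 of the 7 members were higher in all 4 treated arrays (PSMB8, PSMB9, PSMB5, PSMB7 and PSME1), as were 6.88% of all genes. The count was 4 after a second quantile normalization and 3 with arrays centred on their medians, where PSMB7 and PSME1 turned in DOV-13. PSMB8 and PSMB9 were higher in all 4 lines under each of these scalings.

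For each of the 7 members the range over the untreated lines was wider than its largest difference with pI:pC, although for PSMB10 by little (1.22 against 1.18). By limma's F test of the line terms, adjusted over all genes, 7 of 7 members differed between lines, as did 69.7% of all genes. The line terms rest on both arrays of a line, and the spread in this test is what those 2 arrays leave after the mean change. The untreated range, whose lower end for PSMB9 is a dim value, was 3.82 for PSMB9 (wider than 97.1% of genes), 2.25 for PSMB8 (90.3%), 1.71 for PSME1 (83.8%) and 1.22 for PSMB10 (72.1%). It was 0.64 for PSMB5, 1.11 for PSMB6 and 1.02 for PSMB7, wider than 45.1% to 67.8% of genes. The count was 5 without OVCAR-3, 6 without DOV-13 and 6 with the trended, robust variance.

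The order of the lines on the untreated arrays was the same for PSMB8 and PSMB9, with CAOV-3 first, then DOV-13, SKOV-3 and OVCAR-3. The contrasts given for each order compare the means of both arrays of a line, so the untreated order by itself has no test. For PSMB8 each neighbour in the order differed in limma's line contrasts (adjusted p = 0.000959, 0.00361 and 0.0389 over all genes and line pairs). For PSMB9 the steps from CAOV-3 to DOV-13 and on to SKOV-3 passed (adjusted p = 0.000153 and 0.000111), and SKOV-3 and OVCAR-3 did not differ beyond their spread (0.285). PSME1 ran CAOV-3, DOV-13, OVCAR-3, SKOV-3, and each step passed (adjusted p = 0.000792, 0.0383 and 0.000232).

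PSMB10 had another order, SKOV-3, OVCAR-3, CAOV-3 and DOV-13. None of its neighbours differed beyond their spread in limma's contrasts (adjusted p = 0.72, 0.673 and 0.0779), though its ends did (0.0197). SKOV-3 and OVCAR-3 were 0.40 apart untreated and 0.13 apart over both arrays. For PSMB5 the step from SKOV-3 down to OVCAR-3 passed (adjusted p = 0.0034) and the upper lines did not differ beyond their spread (0.972 and 0.0998). For PSMB6 the steps from DOV-13 to CAOV-3 (adjusted p = 0.0127) and from SKOV-3 to OVCAR-3 (0.000867) passed, and CAOV-3 and SKOV-3 did not (0.543). For PSMB7 only the step from DOV-13 to the lowest line, CAOV-3, passed (adjusted p = 0.00878). CAOV-3 was thus highest for PSMB8, PSMB9 and PSME1 and lowest for PSMB7.

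By likeness of pattern over the 8 arrays (root mean square difference after centring each gene on its mean), the nearest genes to PSMB8 were the MHC class I heavy chain gene HLA-C (0.20), JADE2 (0.21) and LIPA, which encodes lysosomal acid lipase (0.22). The SD of PSMB8 over the arrays was 0.98. HLA-C was higher with pI:pC by 0.30 in SKOV-3, 0.17 in DOV-13, 0.45 in CAOV-3 and 0.52 in OVCAR-3, so its largest difference was in OVCAR-3 where that of PSMB8 was in CAOV-3. JADE2 had at most 0.12. The class I genes resemble each other closely, so the HLA-C probe set may take up transcripts of its relatives. The nearest to PSMB9 were GALNT12 (0.41), NPTX1 (0.54) and CTBS (0.58), against an SD of PSMB9 of 1.82. The treated minus untreated differences of these 3 ran from -0.57 to 0.24, so the likeness lay in the levels of the lines, with CAOV-3 highest and DOV-13 next for each. The nearest to PSMB10 were KLF5 (0.26), MAP3K9 (0.28) and IMPA1 (0.28), and to PSME1 CENPC (0.13), MLF2 (0.14) and SEC22B (0.14).

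The rest of the proteasome had small mean changes. Of 6 measured alpha ring genes of the core 6 had a positive mean change, with a median of 0.063, and of 4 noncatalytic beta genes 4 did, with a median of 0.034. Of 19 genes of the regulatory particle, which recognises and unfolds ubiquitinated proteins, 14 were positive, with a median of 0.029, and 6427 of the 11963 genes were positive, with a median of 0.0072. In these lists 0 genes passed limma's test over all genes in either direction, and 0 were at an unadjusted p under 0.05. The largest mean changes were ADRM1, a ubiquitin receptor, at 0.13 ± 0.10 (SD, n = 4 lines), PSMB2 at 0.11 ± 0.10 and PSMA3 at 0.11 ± 0.11. PSMD10 had -0.083 ± 0.12 and the regulatory ATPase gene PSMC4 0.10 ± 0.15.

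PSME3, the nuclear relative of PSME1, had 0.069 ± 0.050 (SD, n = 4 lines). POMP, the chaperone that assembles the core, had 0.023 ± 0.072, the inhibitor gene PSMF1 -0.052 ± 0.092 and the assembly chaperone gene PSMG1 0.039 ± 0.11. The 6 measured genes of that group had a median of 0.025, with 4 positive, and 0 passed limma's test in either direction (0 at an unadjusted p under 0.05).

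Genes that handle the peptides afterwards had mean changes nearer in size to those of the inducible subunits. All 7 measured genes of peptide transport and trimming had a positive mean change, with a median of 0.40. In limma's test over all genes 0 of them passed in either direction (3 higher at an unadjusted p under 0.05, as were 2.43% of all genes). The list median was -0.051 in SKOV-3, where only TAPBP was higher, 0.17 in DOV-13, 1.08 in CAOV-3 and 0.38 in OVCAR-3. The aminopeptidase gene LAP3 had -0.12, 0.14, 1.53 and 0.69, and the tapasin gene TAPBP 0.21, 0.33, 1.08 and 0.32, in the same order of lines. TAP2, the other transporter subunit, had -0.21, 0.17, 1.23 and 0.40.

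TAP1 and its head-to-head neighbour PSMB9 had different values in SKOV-3 and DOV-13. TAP1 had untreated levels of 7.52 in SKOV-3, 7.85 in DOV-13, 8.37 in CAOV-3 and 6.02 in OVCAR-3, and treated levels of 7.50, 7.83, 10.00 and 6.89. Its differences were -0.028 in SKOV-3 and -0.016 in DOV-13, where PSMB9 had 0.63 and 0.22, and 1.63 in CAOV-3 and 0.87 in OVCAR-3, where PSMB9 had 1.21 and 0.61. TAP1 thus had the larger difference of the neighbours in CAOV-3 and OVCAR-3 and PSMB9 in SKOV-3 and DOV-13. With 1 array per condition in a line these contrasts have no test.

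The 6 transcription factor genes analysed that are known to act on these genes had a median mean change of 0.16, 5 of them positive. In limma's test 0 passed in either direction (2 higher at an unadjusted p under 0.05, as were 2.43% of all genes). IRF1, which drives PSMB9 and TAP1, was higher in every line, by 0.15 in SKOV-3, 0.17 in DOV-13, 0.29 in CAOV-3 and 0.12 in OVCAR-3. The NF-kB subunit gene NFKB1 was higher by 0.13, 0.21, 0.46 and 0.050. IRF9, an interferon regulatory factor that binds DNA, had -0.029, -0.21, 0.81 and 2.11, so its largest difference was in OVCAR-3 and not in CAOV-3, where the inducible subunits had theirs.

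**Figure D3:**
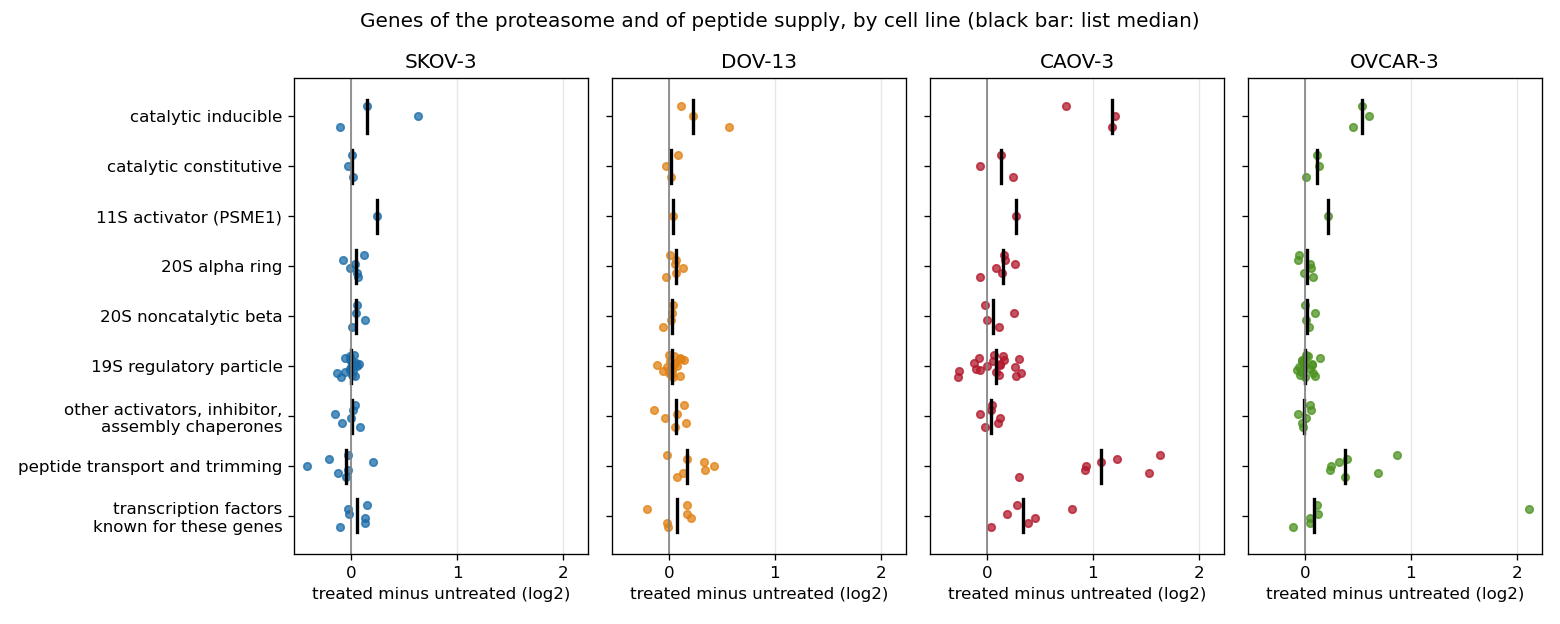
Treated minus untreated log2 difference of the genes of each proteasome and peptide supply list, a panel per cell line, 1 point per gene, with the list median as a black bar. The inducible catalytic genes (median 1.18) and the peptide transport and trimming genes (1.08) stand to the right in CAOV-3, while the core, regulatory particle and assembly lists have medians between -0.0032 and 0.16 in every line.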

How the data were processed

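The authors deposited log2 expression values, and the submitters' processing notes name RMA as the method. RMA by its usual definition corrects background, brings arrays to 1 distribution and summarises probes per probe set. The sources used here do not say which version was run, or whether on all arrays at once. Of 22277 probe sets, 19064 carry 1 symbol in the platform annotation, 1043 several, and 2170 are unnamed here, 62 of them array controls. The probe set with the highest mean stood for a gene, which left 11963 genes. Treated and untreated arrays were paired by the cell line in the labels, and deviations from the group means correlated at 0.945 to 0.968 within pairs. limma (version 3.58.1, R version 4.3.3) was fitted on all genes with the line as a block, two-sided, at an adjusted p of 0.05. The fit was also tried on simulated data with equal noise for all genes and an equal added change in every line, a setting simpler than these data. Pathway lists, naming rule and alternatives were written down beforehand, but members and lists were chosen with earlier results of these data known. All members were named, with the 3 largest mean changes of each other list, a few genes fixed by name and the 3 nearest genes by pattern. The alternatives tried were a fit without the block, a level filter, other probe set rules, other scalings, another variance prior, other size limits and leaving out each line. Fibroblast and endothelial markers (8 measured) had median differences between -0.042 and 0.053 in the lines.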

Additional observations from a re-analysis of the deposited data

Results flagged for a closer look

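PSMB10 differed by -0.10 in SKOV-3 while it was higher in the other lines, and the PSMB10 minus PSMB7 difference was -0.12 there against positive values elsewhere. Neither difference between lines was tested, since a line has 1 array per condition.

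PSMB6 differed by -0.031 in SKOV-3, -0.026 in DOV-13 and -0.064 in CAOV-3, opposite in sign to OVCAR-3, and this too was not tested.

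The PSMB7 difference of 0.25 in CAOV-3 stood apart from the other 3 lines by Dixon's criterion. It was 1 of 24 sets of 4 values examined, and chance marks about 5% of such sets where the lines share the same spread. The differences of all genes were most spread in CAOV-3 (SD 0.29, against 0.16 to 0.20 in the other lines). The PSMB7 difference was above that of 90.3% of genes there.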

How the results depend on the processing

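No member or other gene passed limma's test under any of the 12 alternatives, the fit with no replicate block included (0 raised and 0 lowered, with 9 genes at an unadjusted p under 0.05). That fit ignores the pairing by line and could hardly find a change. Leaving out 1 line at a time gave 0 in each direction. It moved PSMB8 minus PSMB5 between 0.199 and 0.393, PSMB9 minus PSMB6 between 0.462 and 0.802 and PSMB10 minus PSMB7 between 0.291 and 0.640, all positive, and the members that differ between lines between 5 and 7. The mean change of PSMB6 reversed to -0.0081 with arrays centred on the median and to -0.040 without OVCAR-3, and the cause was not tested. The other 6 members kept a positive mean under their 8 alternatives each. Among these, the other probe set rules could not move a mean, since each measured member has 1 probe set. With a limit of 0.5 in place of 1, the genes counted as higher went to 11 in SKOV-3, 34 in DOV-13, 274 in CAOV-3 and 59 in OVCAR-3. With the mean of a gene's probe sets SKOV-3 had 0. Signal over background is not given, which limits PSMB9 most in SKOV-3 and OVCAR-3.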
